A study of Mus musculus with 12 samples.

Results

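Cdkn1a, which codes for the cyclin-dependent kinase inhibitor p21, and 8 other genes tied to the tumour suppressor p53 were followed through mouse hippocampal RNA-seq. They are Bbc3, Bax, Mdm2, Ccng1, Trp53, Trp53inp1, Sesn1 and Gadd45a, and make 9 of the 35775 genes in the count table. Cdkn1a was chosen by its own rise in the F0_Dep and F1_Dep groups, and Bbc3 was chosen by its low level in F1_Dep. The levels of these 2 genes are therefore described with no test, and the other 7 genes, which were named for their role, were tested. All 9 passed the filter on low counts, and the lowest count of any of them in any library was 86, for Bbc3. The question was whether Cdkn1a moved with other p53 targets across the 4 groups.

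The animals were male C57BL/6 mice aged 8 weeks, with 3 mice in each group. The F0_Dep mice had been made depressive by stress, and F0_Ctl were normal mice. F1_Dep were sons of such depressed males, and F1_Ctl were sons of normal males. The labels name no allele or drug in any group, and the sources used here do not say how the stress was applied. Father and litter are not named, so sons of a group may share one, and p-values then measure only the spread between these mice. Lane names stand in the labels of F1_Ctl alone, so a separate sequencing run and the group cannot be told apart in comparisons with F1_Ctl. Library totals of the expected counts ran from 18277208 to 23083678.

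Protein p53, encoded by Trp53, is a transcription factor that is held low by the ubiquitin ligase Mdm2 and accumulates when DNA is damaged or cells are otherwise stressed. It then raises transcription of genes that stop the cell cycle, repair DNA or, through proteins such as PUMA and BAX, start death at the mitochondria, and it raises Mdm2, which closes a feedback loop. Cdkn1a is the classical arrest target of p53. It is also raised by other transcription factors, among them the glucocorticoid receptor, and is expressed in neurons and glia that no longer divide.

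The promoters of these genes are shown because p53 binds a sequence of its own, searched here only close before their starts. Bases farther upstream and within the genes were not searched, so the windows do not tell which genes are direct targets. RefSeq promoters on GRCm38.p6 were matched for 8 of the 9 genes, not for Trp53inp1, and the 250 bases before each of their 12 annotated starts were searched on both strands. At least 1 p53 half-site, the 10-letter unit that p53 binds as a pair, was found in 7 of the 12 windows, belonging to 7 of the 8 genes. The same search found one in 7.124% of the 32817 mouse promoter windows. Capitals below mark the half-sites, and every sequence runs 5′ to 3′ on the strand of its gene.
Cdkn1a, 250 bases before the first start (chr17:29090729-29090978, plus strand): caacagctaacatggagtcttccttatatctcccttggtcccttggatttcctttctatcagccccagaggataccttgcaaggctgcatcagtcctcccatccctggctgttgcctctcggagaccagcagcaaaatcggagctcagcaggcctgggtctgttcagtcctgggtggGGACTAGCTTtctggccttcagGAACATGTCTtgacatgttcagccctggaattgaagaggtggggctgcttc
Mdm2 (chr10:117710920-117710959, minus strand): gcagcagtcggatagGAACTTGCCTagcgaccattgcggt
Ccng1 (chr11:40755447-40755486, minus strand): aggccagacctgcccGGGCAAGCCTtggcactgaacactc
Gadd45a (chr6:67037423-67037462, minus strand): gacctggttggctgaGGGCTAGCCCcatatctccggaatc
Bax (chr7:45467075-45467114, minus strand): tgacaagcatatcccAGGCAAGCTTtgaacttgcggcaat
Sesn1 (chr10:41887251-41887290, plus strand): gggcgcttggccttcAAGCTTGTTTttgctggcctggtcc
Trp53 (chr11:69580269-69580308, plus strand): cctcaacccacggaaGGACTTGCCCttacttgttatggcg

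Cdkn1a had 2 annotated starts 2790 bases apart. The window before the first start held 2 half-sites with 12 bases between them, where a gap of up to 13 bases was allowed. Such a pair was found in 0.06399% of all windows. Right after the second of these half-sites stand the letters tgacatgttc, which the search did not count. They start with t, where every marked half-site starts with A or G, and fit the half-site at every other letter. The pair marked here is therefore a match of this search, and p53 may bind another pair. The window before the second start held no half-site. None of the 3 windows of Bbc3 held a half-site. The letters AGAACA, one arm of the element bound by the glucocorticoid receptor, were in 0 of the 12 windows and in 16.08% of all windows. The GC box GGGCGG was in 9 of the 12 windows and in 32.72% of all windows. A match here is a match of letters, and no binding was measured.

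Markers of the hippocampus and of tissue next to it set some libraries apart. All 10 markers of dentate granule cells, neurons that define the hippocampus, were detected in every group, with 0 at 0. The summed level of 10 choroid plexus markers, of which 0 were at 0 in any group, ran from 2794 to 4514 CPM in F1_Dep and was 4993 CPM in F0_Ctl 3 and 9078 CPM in F1_Ctl 3, against 35.0 to 607 CPM in the other 7 libraries. CPM are read counts scaled to library size and are not per length. The summed level of 10 striatal markers was 1557 CPM in F1_Dep 1, against 199 to 380 CPM in the other 11. The part of neighbouring tissue in the values below was not tested, and values without F0_Ctl 3, F1_Ctl 3 and F1_Dep 1 are given where they bear on a result. That omission does not even the F1 groups in choroid plexus markers. Their sums are then 4514 and 4158 CPM in F1_Dep, against 129 and 607 CPM in F1_Ctl. In that setting the F1 groups and a difference in choroid plexus cannot be told apart.

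Cdkn1a (ENSMUSG00000023067, chromosome 17, 29090976 to 29100727 on GRCm38, the build of all coordinates here) was higher in both Dep groups. Its level was 13.2, 12.8 and 13.3 CPM in F0_Dep, against 6.97, 5.85 and 8.17 in F0_Ctl. It was 11.3, 17.0 and 14.9 CPM in F1_Dep, against 6.24, 6.77 and 7.29 in F1_Ctl. Every Dep library lay above every Ctl library, and the F0_Dep mice were close to each other while the F1_Dep mice were spread. The log2 fold change was 0.90 ± 0.17 (SE) for F0_Dep over F0_Ctl and 1.09 ± 0.17 for F1_Dep over F1_Ctl. The F1 change exceeded the F0 change by 0.19 ± 0.24, less than its error, and the F1_Ctl and F0_Ctl groups differed by -0.05 ± 0.17. In FPKM, which the authors deposited for 3 of the 4 groups, the values were 6.96, 6.06 and 6.50 in F0_Dep, 5.97, 8.53 and 7.50 in F1_Dep and 3.23, 3.07 and 4.99 in F0_Ctl, again without overlap. Means were 14.4 ± 2.89 CPM in F1_Dep, 13.1 ± 0.246 in F0_Dep, 6.997 ± 1.16 in F0_Ctl and 6.77 ± 0.522 in F1_Ctl (SD, n = 3 each), and neighbours in this order overlapped except F0_Dep and F0_Ctl. With both Dep groups set against both Ctl groups the log2 fold change was 0.996 ± 0.12. Without F0_Ctl 3, F1_Ctl 3 and F1_Dep 1 together, it was 1.04 in F0 and 1.29 in F1. The gene shares 1046 bases with AC167363.2 on the opposite strand, and the sources used here do not say whether counting used strand.

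**Figure D1:**
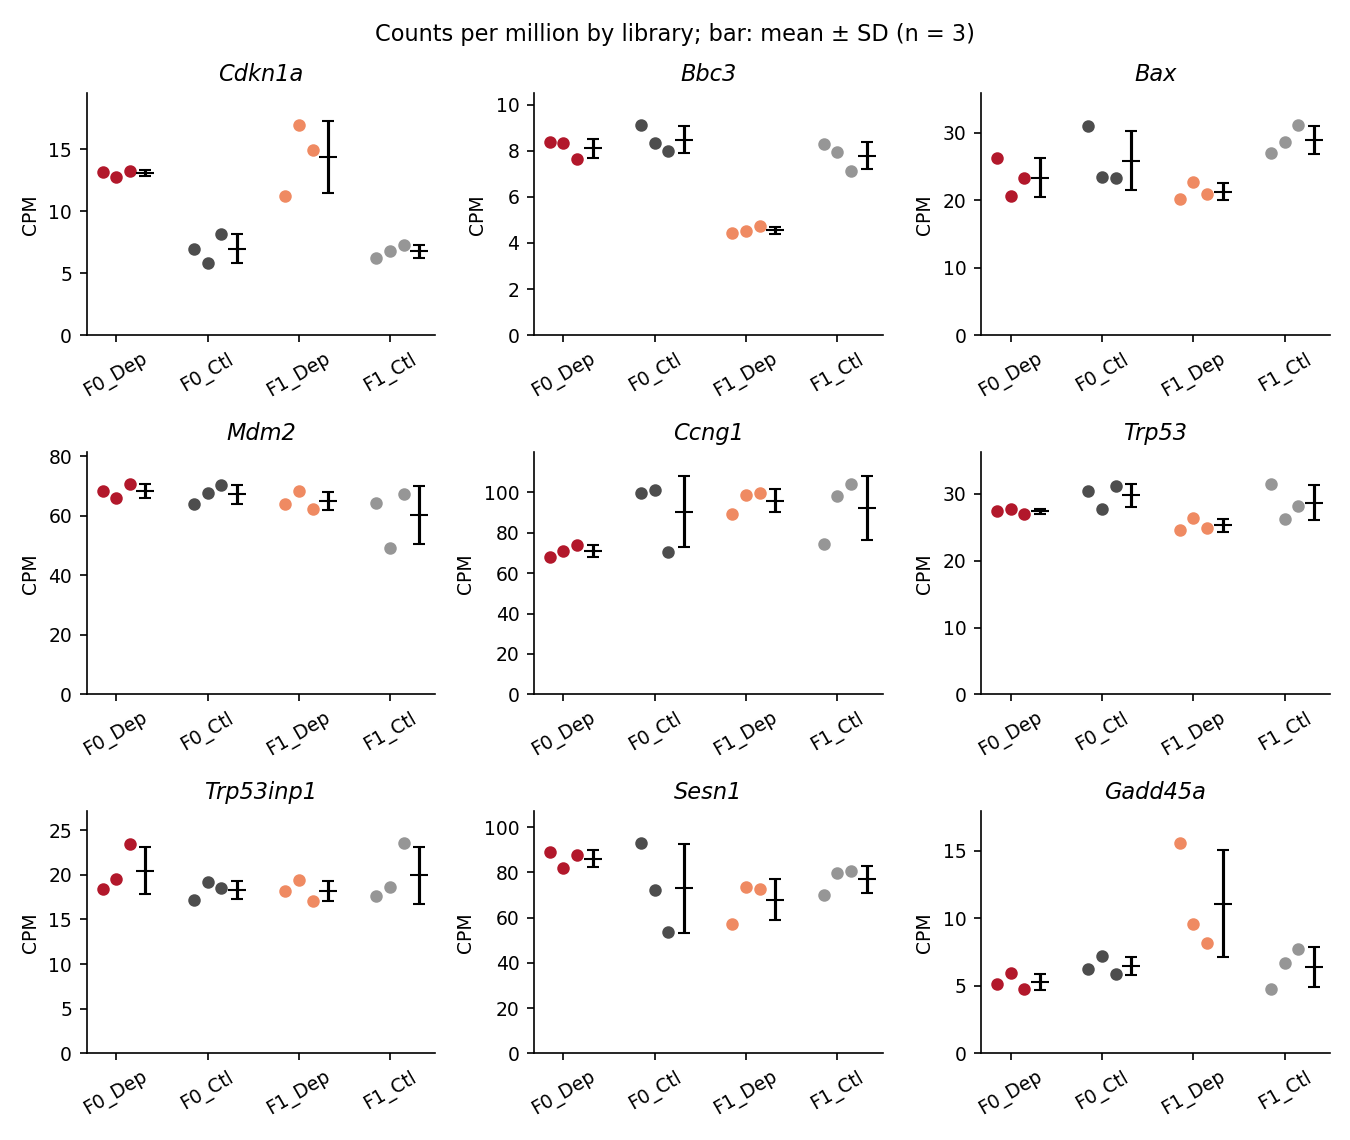
Level of each of the 9 genes in CPM (read counts scaled to library size, axis from 0) in each library of F0_Dep, F0_Ctl, F1_Dep and F1_Ctl. Points are mice, and the black bar beside them is the mean with its SD (n = 3). Cdkn1a is above 11 CPM in the 6 Dep libraries and below 9 in the 6 Ctl libraries, Bbc3 is below 5 CPM in F1_Dep alone, and most other genes overlap between groups.

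Among the other arrest genes, Gadd45a (chromosome 6, 67035096 to 67037457), whose product binds PCNA and cell cycle kinases after DNA damage, had its highest values in F1_Dep. Its level was 15.6, 9.55 and 8.15 CPM in F1_Dep, against 4.79, 6.71 and 7.74 in F1_Ctl. It was 5.10, 5.99 and 4.80 CPM in F0_Dep, against 6.26, 7.22 and 5.90 in F0_Ctl. The F1_Dep libraries lay above all others, though F1_Dep 3 and F1_Ctl 3 were close, while the F0 groups overlapped. Gadd45a had log2 fold changes of 0.79 ± 0.25 in F1 (adjusted p = 0.175, edgeR quasi-likelihood test with Benjamini-Hochberg adjustment) and -0.29 ± 0.25 in F0 (adjusted p = 0.55), and neither passed the threshold of an adjusted p under 0.05. The difference between the F1 and F0 changes was 1.08 ± 0.35 (adjusted p = 0.216, edgeR). Without F1_Dep 1, the library with the striatal markers at 1557 CPM, the F1 value was 0.47. Gadd45a shares 859 bases with E230016M11Rik on the opposite strand.

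Ccng1 (chromosome 11, 40748552 to 40755311), which codes for cyclin G1, a p53 target that acts back on Mdm2, had its lowest group mean in F0_Dep. It had 68.0, 71.2 and 73.7 CPM in F0_Dep, against 99.8, 101 and 70.4 in F0_Ctl. It had 89.2, 98.5 and 99.8 CPM in F1_Dep, against 74.4, 98.3 and 104 in F1_Ctl. The F0_Dep mice were low and close together, and F0_Ctl 3 lay among them. Its log2 fold change was -0.35 ± 0.15 in F0 (adjusted p = 0.225, edgeR) and 0.05 ± 0.15 in F1 (adjusted p = 0.913). Without F0_Ctl 3, F1_Ctl 3 and F1_Dep 1 together the F0 value was -0.49 and passed the threshold. In that setting 363 of all genes were called higher and 149 lower in F0, in place of 56 and 24. Without F0_Ctl 3 alone the F0 value of Ccng1 was also -0.49 and did not pass.

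Of the death genes, Bbc3 (chromosome 7, 16308393 to 16318205), which codes for the BH3-only protein PUMA, was low in the sons of depressed males. It had 4.42, 4.52 and 4.73 CPM in F1_Dep, against 8.31, 7.92 and 7.14 in F1_Ctl. It had 8.36, 8.31 and 7.64 CPM in F0_Dep, against 9.11, 8.32 and 7.99 in F0_Ctl. The F1_Dep mice stood apart from the 9 others, which overlapped. Means were 4.56 ± 0.155 CPM in F1_Dep, 8.10 ± 0.406 in F0_Dep, 7.79 ± 0.597 in F1_Ctl and 8.47 ± 0.577 in F0_Ctl (SD, n = 3 each). The log2 fold change was -0.77 ± 0.13 for F1_Dep over F1_Ctl, -0.89 ± 0.13 for F1_Dep over F0_Ctl and -0.06 ± 0.13 for F0_Dep over F0_Ctl. The first 2 of these values share the F1_Dep libraries, and the last 2 share the F0_Ctl libraries. Cdkn1a and Bbc3 lay on opposite sides in F1_Dep, 1 higher and 1 lower, which follows from how these 2 genes were chosen.

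Levels of dentate granule cell markers were also low in F1_Dep. The summed level of 10 such markers was 253, 554 and 423 CPM in F1_Dep, against 1043, 776 and 786 in F1_Ctl, and it ran from 760 to 1039 in F0_Dep and from 644 to 799 in F0_Ctl. None of the 10 was at 0 in any group. In bulk tissue, fewer cells of a type and less RNA per cell cannot be told apart, and the part of cell makeup in the Bbc3 level was not tested. Across the 3 F1_Dep libraries the marker sum ran from 253 to 554 CPM and Bbc3 from 4.42 to 4.73 CPM. Without F0_Ctl 3, F1_Ctl 3 and F1_Dep 1 together, the log2 fold change of Bbc3 in F1 was -0.82.

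Bax (chromosome 7, 45461697 to 45466898), whose product opens the outer mitochondrial membrane once BH3-only proteins such as PUMA are active, also had its lowest group mean in F1_Dep. It had 20.3, 22.6 and 20.9 CPM in F1_Dep, against 27.0, 28.7 and 31.1 in F1_Ctl, which did not overlap. It had 26.3, 20.6 and 23.2 CPM in F0_Dep, against 31.0, 23.4 and 23.3 in F0_Ctl, which did. Bax had log2 fold changes of -0.44 ± 0.13 in F1 (adjusted p = 0.16, edgeR) and -0.15 ± 0.13 in F0 (adjusted p = 0.559), and neither passed. Bax shares 915 bases with Gm45808 on its own strand, so reads there may be split between them.

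Trp53 itself (chromosome 11, 69580359 to 69591873) was not higher where Cdkn1a was. It had 27.4, 27.7 and 27.1 CPM in F0_Dep, against 30.4, 27.8 and 31.1 in F0_Ctl. It had 24.6, 26.3 and 24.9 CPM in F1_Dep, against 31.5, 26.3 and 28.2 in F1_Ctl. All 3 F0_Dep values lay just below the F0_Ctl values, and F1_Dep overlapped F1_Ctl by a single pair of mice. For Trp53 the log2 fold change was -0.12 ± 0.09 in F0 (adjusted p = 0.478, edgeR) and -0.18 ± 0.09 in F1 (adjusted p = 0.376). Mdm2 (chromosome 10, 117688875 to 117710758), the feedback target, had between 62.4 and 70.6 CPM in the Dep libraries and between 49.0 and 70.2 in the Ctl libraries. Its log2 fold change was 0.02 ± 0.11 in F0 (adjusted p = 0.929, edgeR) and 0.11 ± 0.11 in F1 (adjusted p = 0.699). RNA level says nothing of the p53 protein, which is controlled mainly by its breakdown and was not measured.

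The other targets, Sesn1 and Trp53inp1, overlapped between Dep and Ctl mice in both generations. Sesn1 (chromosome 10, 41809935 to 41908424), which codes for a sestrin that limits mTORC1 signalling, had 89.0, 81.9 and 87.6 CPM in F0_Dep, against 93.0, 72.2 and 53.8 in F0_Ctl. It had 57.4, 73.4 and 72.7 CPM in F1_Dep, against 69.9, 80.0 and 80.8 in F1_Ctl. F0_Dep was narrow while F0_Ctl spread, with its highest mouse above and its lowest far below F0_Dep. In log2 fold change Sesn1 had 0.24 ± 0.17 in F0 (adjusted p = 0.447, edgeR) and -0.18 ± 0.17 in F1 (adjusted p = 0.663). The F0 value was 0.07 without F0_Ctl 3 and 0.47 without F0_Ctl 1. Sesn1 shares 2584 bases with 9930024M15Rik on its own strand. Trp53inp1 (chromosome 4, 11156431 to 11174379), whose product takes part in p53-dependent death and in autophagy, ran from 17.1 to 23.6 CPM over all libraries, with log2 fold changes of 0.16 ± 0.13 in F0 and -0.13 ± 0.13 in F1. Neither passed (adjusted p = 0.53 and adjusted p = 0.697, edgeR).

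Over the 7 genes named for their role, 0 passed in F0_Dep against F0_Ctl, where 0.495% of the 16163 genes tested did, and 0 in F1_Dep against F1_Ctl, where 0.167% did. With both Dep groups set against both Ctl groups, 0 of 7 passed and 0.792% of all genes did. For the difference between the F1 and F0 changes the count was 0 of 7 beside 0.0681% of all genes. It was 0 of 7 beside 0.0% in F1_Dep against F0_Ctl, and 0 of 7 beside 0.0% in F1_Ctl against F0_Ctl; over all genes edgeR gave 2078 and 957 at an unadjusted p under 0.05 there, and DESeq2 called 410 and 0. At an unadjusted p under 0.05 in edgeR, 1 of the 7 passed in F0 and 2 in F1, where 19.7% and 14.8% of all genes did. There were 2 in both Dep groups together beside 21.7%, 1 in the difference beside 13.4%, 2 in F1_Dep against F0_Ctl beside 12.9% and 0 between the controls beside 5.92%. DESeq2 called 0 of the 7 in each of the 6 comparisons. Of the genes to which it gave an adjusted p, it called 8.11% in F0, 3.71% in F1, 9.41% in both Dep groups together, 3.04% in the difference, 2.75% in F1_Dep against F0_Ctl and 0.0% between the controls. For 7 genes these counts do not stand apart from those shares.

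Counted by direction, 3 of the 7 were higher and 4 lower in F0, with a median log2 fold change of -0.12 beside -0.03 over all genes tested. In F1 the split was again 3 higher and 4 lower, with a median of -0.13 beside -0.02 over all genes. Libraries of the groups did not overlap for 1 of the 7 in F0, Trp53, lower, where 27.4% of all genes did not overlap. In F1 they did not overlap for 2 of the 7, Gadd45a, higher, and Bax, lower, where 19.0% of all genes did not. With both Dep groups set against both Ctl groups, Bax had -0.30 ± 0.09 (adjusted p = 0.113, edgeR) and Trp53 -0.15 ± 0.06 (adjusted p = 0.197, edgeR), below 0 in both generations. In F1_Dep over F0_Ctl, Gadd45a had 0.78 ± 0.25 (adjusted p = 0.219, edgeR) and Trp53 -0.24 ± 0.09 (adjusted p = 0.299, edgeR). For the difference between generations Ccng1 had 0.40 ± 0.21 and Sesn1 -0.42 ± 0.23 (adjusted p = 0.429 and adjusted p = 0.468, edgeR). Without F0_Ctl 3, F1_Ctl 3 and F1_Dep 1 together these were 0.69 and -0.11, and without F0_Ctl 1 the Sesn1 value was -0.65. Between F1_Ctl and F0_Ctl the 7 values ran from -0.16 for Mdm2 to 0.16 for Bax. Levels of Cdkn1a stood above control in both Dep groups while those of the 7 others lay on both sides.

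**Figure D2:**
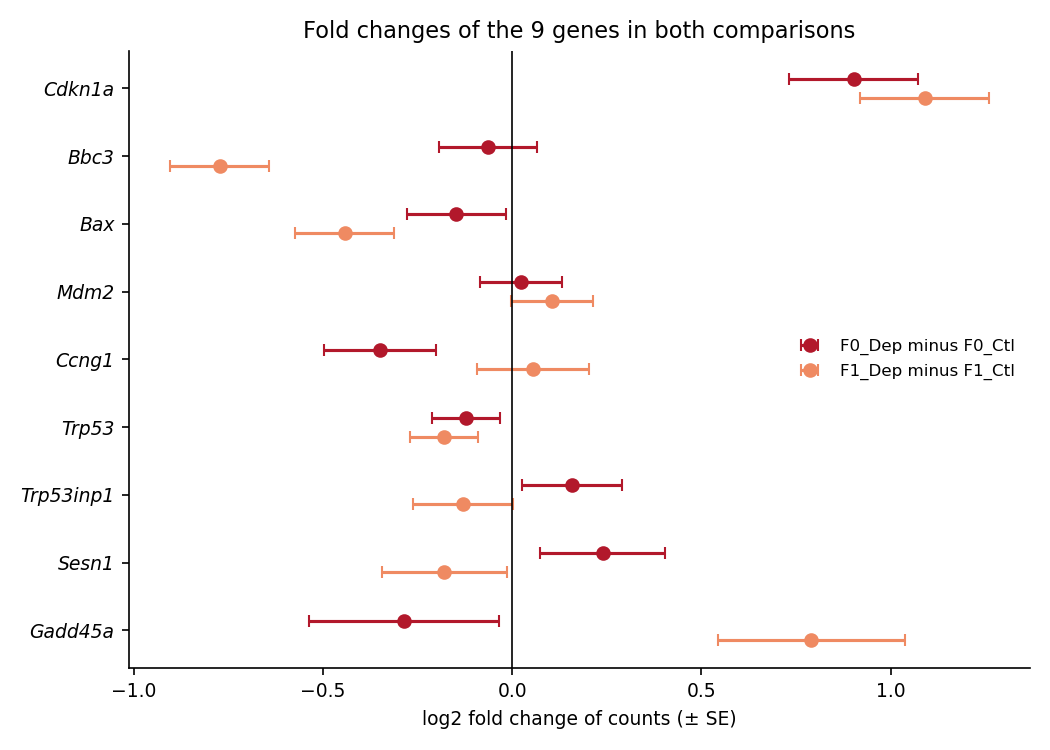
Log2 fold change of counts with its standard error for each of the 9 genes, F0_Dep minus F0_Ctl in dark red and F1_Dep minus F1_Ctl in orange. Cdkn1a is near 1 in both (0.90 and 1.09), Bbc3 is at -0.77 in F1 and near 0 in F0, and Gadd45a is at 0.79 in F1 and -0.29 in F0.

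The deposited FPKM values gave another picture of F0_Dep for some of these genes. On the log2(FPKM + 1) scale, which understates changes of low genes, Bax fell by 0.50 in F0_Dep (SE 0.12, adjusted p = 0.0195, limma) and Trp53inp1 rose by 0.42 ± 0.12 (adjusted p = 0.0299, limma). These 2 of 7 stand beside 21.2% of the 13814 genes tested in FPKM. Bbc3, untested, had -0.45 ± 0.11, while Ccng1 had -0.00 ± 0.14, against -0.35 ± 0.15 in counts. Bax had 20.3, 16.1 and 18.2 FPKM in F0_Dep, against 30.4, 25.1 and 23.2 in F0_Ctl. The ratio of FPKM to CPM, which would be near constant for a gene with a fixed length, was 0.77 to 0.78 for Bax in F0_Dep, against 0.98 to 1.07 in F0_Ctl. For Ccng1 that ratio was 0.30 in each F0_Dep library, against 0.22 to 0.26 in F0_Ctl. The deposited counts and FPKM therefore disagree on these genes by a shift that is shared by the F0_Dep libraries, and which of them is closer to the RNA level was not tested. Cdkn1a was less touched, with a ratio of 0.47 to 0.53 in F0_Dep, against 0.46 to 0.61 in F0_Ctl, and a change of 0.68 ± 0.16 on the FPKM scale.

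**Figure D3:**
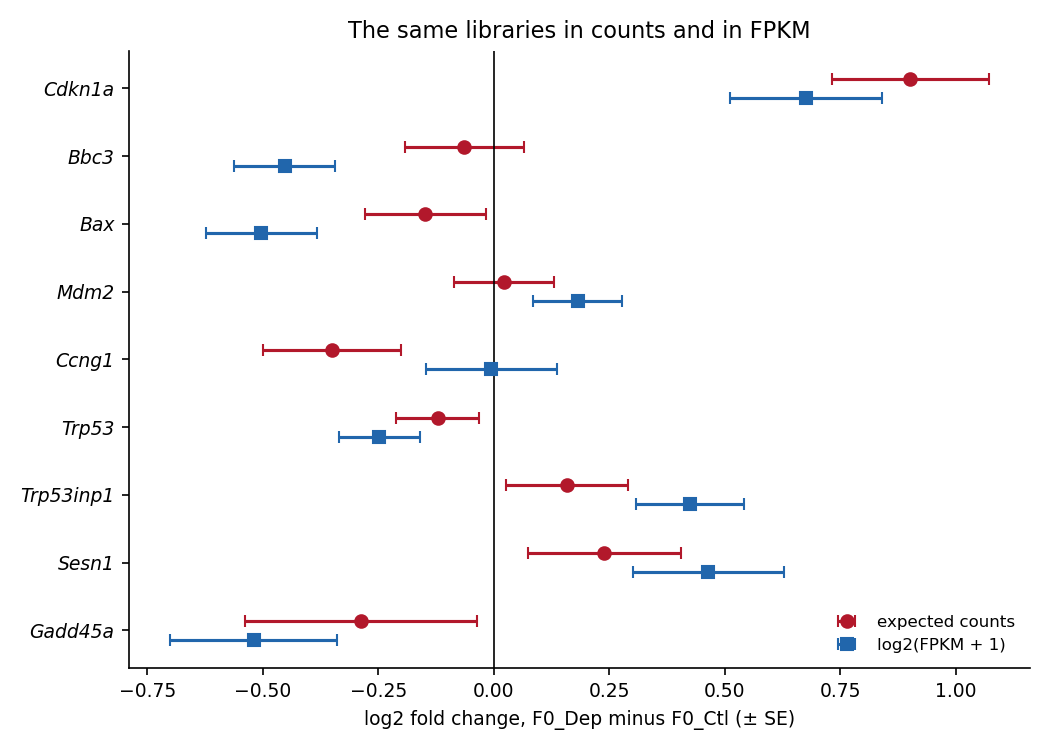
Log2 fold change of F0_Dep minus F0_Ctl with its standard error for each of the 9 genes, from expected counts (circles) and from log2(FPKM + 1) (squares). Bax, Bbc3 and Ccng1 differ most between the measures, at -0.15 and -0.50, -0.06 and -0.45, and -0.35 and -0.00.

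FPKM also allows levels to be set beside each other per length of transcript. In F0_Dep, F1_Dep and F0_Ctl the group means were 34.5, 26.4 and 25.2 FPKM for Sesn1, 26.2, 22.6 and 23.1 for Mdm2, 21.3, 26.2 and 21.7 for Ccng1 and 18.2, 20.2 and 26.3 for Bax. Trp53 had 12.3, 12.4 and 14.9. Cdkn1a, at 6.50, 7.33 and 3.76 FPKM, was among the lower ones, beside Gadd45a at 3.63, 8.65 and 5.64, Trp53inp1 at 5.02, 3.92 and 3.48 and Bbc3 at 3.31, 2.29 and 4.90. The order of neighbours among the 4 highest was not the same in the 3 groups.

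A further 36 p53 targets that are no members were set beside them, in 4 lists by role, and 33 were tested. Gdf15 was too low, at 1 to 25 counts per group, and Pmaip1 and Fas were not in the count fit. In F0, 0 of 33 passed by edgeR, 5 had an unadjusted p under 0.05 beside 19.7% of all genes, and DESeq2 called 2, Plk3 and Sesn2, beside 8.11%. Of the 33, 15 were higher and 18 lower, with a median log2 fold change of -0.04. In F1, 1 of 33 passed by edgeR, Plk3, where 0.167% of all genes did, 5 had an unadjusted p under 0.05 beside 14.8% of all genes, and DESeq2 called 2, Plk3 and Zmat3, beside 3.71%. In F1, 22 were higher and 11 lower, with a median of 0.08 beside -0.02 over all genes.

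The death targets without count values could be described in FPKM, which held no F1_Ctl. Pmaip1, which codes for the BH3-only protein NOXA, had 1.01 ± 0.252 FPKM in F0_Dep and 0.996 ± 0.110 in F1_Dep, against 0.432 ± 0.184 in F0_Ctl (SD, n = 3 each). Every library of F0_Dep and F1_Dep lay above those of F0_Ctl. Pmaip1 did not pass the filter on low FPKM and was not tested. Fas, the death receptor, had 1.13 ± 0.231 FPKM in F0_Dep and 0.959 ± 0.273 in F1_Dep, against 0.543 ± 0.139 in F0_Ctl (SD, n = 3 each). Its F0_Dep libraries lay above those of F0_Ctl and its F1_Dep libraries overlapped them. On the log2(FPKM + 1) scale Fas had 0.46 ± 0.16 in F0_Dep over F0_Ctl (adjusted p = 0.0626, limma) and did not pass, where 21.2% of genes did. Their F1 difference was not analysed here.

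Plk3, a polo-like kinase that takes part in stress responses of the cell cycle, lay above its control in F1_Dep and below it in F0_Dep. It had 20.8, 20.0 and 16.7 CPM in F1_Dep, against 9.45, 10.1 and 10.6 in F1_Ctl. It had 8.96, 9.59 and 8.40 CPM in F0_Dep, against 13.1, 14.3 and 12.1 in F0_Ctl. Neither pair of groups overlapped. Plk3 rose by 0.94 ± 0.12 in F1 (adjusted p = 0.0308, edgeR), while its F0 value was -0.55 ± 0.12 (adjusted p = 0.061). The difference between them was 1.49 ± 0.18 (adjusted p = 0.0161, edgeR). The F1 call was lost without F1_Dep 2, F1_Dep 3 or F1_Ctl 2, with the replicate block and when only these groups were fitted, with an adjusted p of at most 0.115. Between the controls Plk3 had a log2 fold change of -0.39 for F1_Ctl over F0_Ctl. Cdkn1a was higher in F0_Dep than in F0_Ctl, where Plk3 was lower.

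By role, the 6 arrest genes besides the members had a median of -0.29 in F0, where 0 were higher and 6 lower, and of 0.41 in F1, where 5 were higher and 1, Btg2, lower. Over all genes, 45.4% were higher in F0 and 46.9% in F1. Among the 6, edgeR called 0 in F0 and 1 in F1, Plk3, beside 0.495% and 0.167% of all genes. At an unadjusted p under 0.05 there were 1 in F0 and 3 in F1, beside 19.7% and 14.8%. DESeq2 called 1 in F0, Plk3, and 2 in F1, Plk3 and Zmat3, beside 8.11% and 3.71%. Between the controls, F1_Ctl over F0_Ctl, the 6 arrest genes had a median of -0.26, with 1 higher and 5 lower. In F1_Dep over F0_Ctl their median was 0.17, with 4 higher and 2 lower. A separate sequencing run and the F1_Ctl group cannot be told apart, and its part in the F1 values was not tested. Zmat3, which codes for an RNA-binding protein, had 107, 96.7 and 106 CPM in F1_Dep, against 77.1, 70.4 and 68.7 in F1_Ctl, with a log2 fold change of 0.52 ± 0.11 (adjusted p = 0.0792, edgeR) and of -0.08 ± 0.11 in F0. Rprm codes for the arrest protein reprimo. It had 46.5 CPM in F1_Dep 1 and 20.7 and 17.3 in the others, against 13.8 to 17.3 in F1_Ctl. Its F1 log2 fold change was 0.81 ± 0.35 and ran from 0.25 to 1.07 over 13 alternatives, of which 0 called it. Gtse1, at a low level, had 1.75 CPM in F1_Dep 1 and 0.65 and 0.63 in the others, against 0.39 to 1.05 in F1_Ctl. F1_Dep 1 is the library with the striatal markers at 1557 CPM. The 10 death genes tested had medians of 0.03 in F0 and 0.07 in F1, the 10 genes of repair and metabolism 0.01 and 0.05, and the 7 feedback and secreted genes 0.00 and 0.03, with 0 called by edgeR in each. At an unadjusted p under 0.05 these 3 lists had 2, 1 and 1 genes in F0 and 1, 0 and 1 in F1. DESeq2 called 0, 1 and 0 in F0 and 0 in F1. The shares of all genes given for the arrest genes stand beside these counts too. Phlda3, an inhibitor of Akt, had -0.69 ± 0.25 in F0 (adjusted p = 0.162, edgeR), and Sesn2, a paralogue of Sesn1, had 0.45 ± 0.14 (adjusted p = 0.125, edgeR). In F1 they had 0.04 ± 0.24 and -0.07 ± 0.14.

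**Figure D4:**
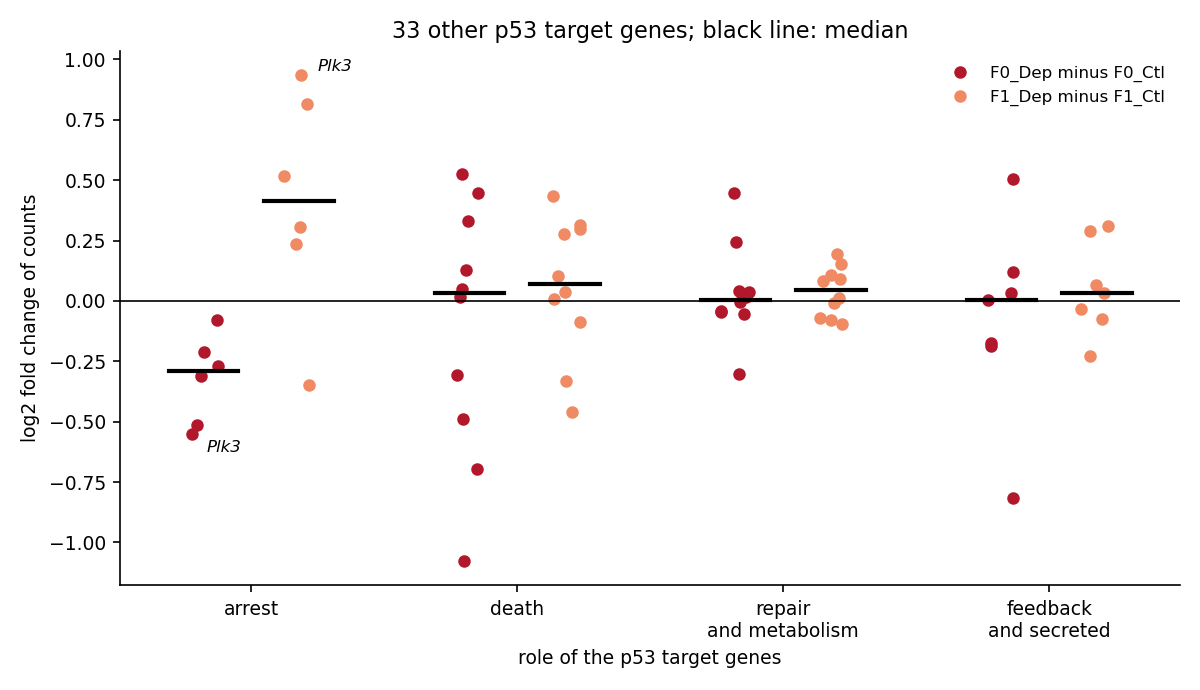
Log2 fold change of counts for 33 p53 target genes other than the 9, by role, F0_Dep minus F0_Ctl in dark red and F1_Dep minus F1_Ctl in orange. Each point is a gene, jittered sideways, and the black line is the median. The arrest genes lie below 0 in F0 (median -0.29) and mostly above 0 in F1 (median 0.41), and Plk3 is labelled.

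Upstream of p53, 17 of 19 regulators were tested; Cdkn2a was too low, at 1 to 5 counts per group, and Kat5 was not in the count fit. In F0, edgeR called 1 of the 17, Ep300, beside 0.495% of all genes. There 6 had an unadjusted p under 0.05 beside 19.7%, and DESeq2 called 3, Atm, Ep300 and Ppp1r13b, beside 8.11%. In F1, edgeR and DESeq2 called 0 beside 0.167% and 3.71%, and 1 had an unadjusted p under 0.05 beside 14.8%. In the difference edgeR called 0 beside 0.0681%, and 3 had an unadjusted p under 0.05 beside 13.4%. DESeq2 called 1 in the difference, Atm, beside 3.04%. With both Dep groups set against both Ctl groups, edgeR called 1, Ep300, beside 0.792%, and 5 had an unadjusted p under 0.05 beside 21.7%. There DESeq2 called 2, Ep300 and Ppp1r13l, beside 9.41%. Kat5, the acetyltransferase TIP60, which acetylates p53, had 11.4 ± 0.674 FPKM in F0_Dep and 15.4 ± 0.290 in F1_Dep, against 16.3 ± 0.642 in F0_Ctl (SD, n = 3 each). It fell by 0.47 on the log2(FPKM + 1) scale in F0_Dep (SE 0.08, adjusted p = 0.00916, limma), where 21.2% of genes were called.

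Ep300, which codes for the histone acetyltransferase p300, is a coactivator of p53 and of many other factors. It had 126, 132 and 130 CPM in F0_Dep, against 85.4, 96.0 and 72.5 in F0_Ctl and did not overlap. It had 95.8 to 109 CPM in F1_Dep, against 71.9 to 92.9 in F1_Ctl, again without overlap. Over all genes, 27.4% did not overlap in F0 and 19.0% in F1. Ep300 rose by 0.61 ± 0.12 in F0_Dep (adjusted p = 0.0474, edgeR), and its adjusted p ran from 0.000175 to 0.225 over 16 alternatives, of which 7 kept the call. It was lost without F0_Dep 1, F0_Dep 2, F0_Dep 3, F0_Ctl 1 or F0_Ctl 3, without scaling, with the replicate block, with only these groups fitted and in FPKM with no filter. In F1 its log2 fold change was 0.31 ± 0.12 (adjusted p = 0.248, edgeR). With both Dep groups set against both Ctl groups it was 0.46 ± 0.08 (adjusted p = 0.0371, edgeR). Of 18 alternatives, 8 kept that call. Mdm4, the partner of Mdm2, had 0.14 ± 0.14 in F0 and 0.10 ± 0.14 in F1.

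The other inhibitors of the same family, Cdkn1b and Cdkn1c, were not called in either generation. Cdkn1b, which codes for p27, had log2 fold changes of 0.13 ± 0.08 in F0 and -0.06 ± 0.08 in F1, and Cdkn1c, which codes for p57, had -1.80 ± 0.92 and 0.01 ± 0.83. Cdkn1c had 1.36 to 3.96 CPM in F0_Dep, against 3.51, 2.71 and 19.8 in F0_Ctl, with the highest value in F0_Ctl 3. In F1_Dep it had 13.7 CPM in library 3 and 17.0 in library 2, with library 1 just below library 3, against 3.12, 5.89 and 34.3 CPM in F1_Ctl. The highest value of each control group was in its library 3, where choroid plexus markers were also highest, and F1_Dep was high in both. The part of choroid plexus in these values was not tested. Its F0 value was -0.31 ± 0.85 without F0_Ctl 3, and its F1 value was 1.73 ± 0.75 without F1_Ctl 3 (adjusted p = 0.333, edgeR). Without F0_Ctl 3, F1_Ctl 3 and F1_Dep 1 together they were -0.31 ± 0.41 and 1.78 ± 0.40, the second with an adjusted p = 0.0528 (edgeR). Of the 22 inhibitors, cyclins, kinases and partners listed, 0 passed in F0 and 0 in F1 by edgeR, 4 and 3 had an unadjusted p under 0.05 beside 19.7% and 14.8% of all genes, and DESeq2 called 2 and 0 beside 8.11% and 3.71%. These shares of all genes also stand beside the next counts. Among 11 tested BCL2 family genes the counts were 0 and 0 by edgeR, 2 and 3 at an unadjusted p under 0.05, and 1 and 1 by DESeq2. Bcl2l1, which codes for the survival protein BCL-XL, had 0.07 ± 0.10 in F0 and 0.16 ± 0.10 in F1. Of the 5 paralogues of the members, 0 passed in either by edgeR, 2 and 0 had an unadjusted p under 0.05, and DESeq2 called 1 and 0. Gadd45b had 0.04 ± 0.20 and 0.24 ± 0.19, and Ccng2 0.10 ± 0.16 and 0.01 ± 0.16.

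Within the groups, no member passed a test of correlation with Cdkn1a over mice. The correlation of log2 CPM, each centred on its group mean, was computed over 12 libraries for the 8 other genes, with a two-sided exact permutation test over all arrangements within groups. Pearson's r ran from -0.49 for Gadd45a to 0.35 for Trp53, and 0 of 8 passed (adjusted p of at least 0.762, exact permutation; 0 of 8 at an unadjusted p under 0.05). Spearman's rho ran from -0.41 to 0.43, with an adjusted p of at least 0.463 (exact permutation). Without the 2 libraries farthest in Cdkn1a, F1_Dep 2 and F0_Ctl 2, r for Gadd45a was -0.42 and for Trp53 -0.17. Without F0_Ctl 3, r was 0.91 for Sesn1 and 0.61 for Bax, each with an adjusted p = 0.037 by exact permutation, so these 2 values rest on leaving out that library. No correlation across the 12 libraries as such was tested, since the Dep and Ctl libraries are separate in Cdkn1a.

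The genes most like Cdkn1a were ranked by Pearson's r of log2 CPM over the 12 libraries, among 12672 genes with a mean of at least 2 CPM. This is a description with no test, since the values share the libraries, their depth and the split between Dep and Ctl by which Cdkn1a was chosen. The 5 highest were Hspa1a (0.94), Ralgds (0.93), Mtf1 (0.93), Herpud1 (0.92) and Hspa1b (0.92). Hspa1a and Hspa1b code for the same inducible heat shock protein from near-identical neighbouring genes, so their counts are uncertain as single genes. Herpud1 codes for a protein of endoplasmic reticulum quality control and Mtf1 for the metal-responsive transcription factor. Hspa1a had 48.9, 65.3 and 47.9 CPM in F0_Dep, against 22.3, 18.2 and 22.7 in F0_Ctl, and 30.3, 70.7 and 54.8 CPM in F1_Dep, against 20.4, 28.3 and 18.8 in F1_Ctl. Neither pair overlapped, and F1_Dep 1 was the lowest Dep library, as for Cdkn1a. Herpud1 had 50.2, 51.7 and 53.7 CPM in F0_Dep, against 42.1, 38.5 and 39.2 in F0_Ctl, and 49.8, 67.8 and 64.6 CPM in F1_Dep, against 39.0, 40.1 and 47.3 in F1_Ctl. With the values centred on group means, the 5 highest were Rbpms2, Lum, Zdhhc6, Pigs and Comtd1, with r from 0.88 to 0.93, and the nearest of them in the other ranking was Zdhhc6, at 1982.

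Of the members, Mdm2 ranked highest in likeness to Cdkn1a, at 2965 of 12672, followed by Gadd45a at 3852, Sesn1 at 5417 and Trp53inp1 at 5421. Ccng1 ranked 8641, Trp53 11917, Bbc3 11987 and Bax 12078. Genes induced by glucocorticoids ranked nearer over the 12 libraries, a ranking that holds the split between Dep and Ctl. Plin4, a lipid droplet protein, was at 8, Errfi1, an inhibitor of the EGF receptor, at 19, Sgk1, a kinase, at 29 and the clock gene Per1 at 75. Tsc22d3 was at 468, Zbtb16 at 1317 and Fkbp5, a co-chaperone of the receptor, at 1454. With values centred on group means, r with Cdkn1a was 0.78 for Sgk1, 0.58 for Tsc22d3, 0.46 for Errfi1 and 0.23 for Plin4. It was 0.05 for Fkbp5, 0.0009 for Zbtb16 and -0.26 for Per1, beside -0.49 to 0.35 for the members. Of this list, 7 of 8 genes were tested, with Klf9 not in the count fit. All 7 had log2 fold changes above 0 in F0 and in F1, where 45.4% and 46.9% of all genes did. The smallest were 0.11 for Tsc22d3 in F0 and 0.03 for Fkbp5 in F1, and libraries of the groups overlapped for both. Fkbp5 had 44.9, 54.4 and 57.1 CPM in F1_Dep, against 59.3, 47.5 and 46.9 in F1_Ctl. The median log2 fold change of the 7 was 0.49 in F0 and 0.59 in F1, beside -0.03 and -0.02 over all genes. Klf9, a transcription factor of this list, had 62.9 ± 5.47 FPKM in F0_Dep and 58.6 ± 3.998 in F1_Dep, against 41.4 ± 7.91 in F0_Ctl (SD, n = 3 each). On the log2(FPKM + 1) scale Klf9 rose by 0.60 ± 0.13 in F0_Dep (adjusted p = 0.0135, limma), where 21.2% of genes were called. Klf9 had no count values, so a shift between counts and FPKM in F0_Dep could not be checked for it. Earlier results of these data had shown that glucocorticoid-induced genes are higher in both Dep groups, so this nearness is no independent evidence.

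**Figure D5:**
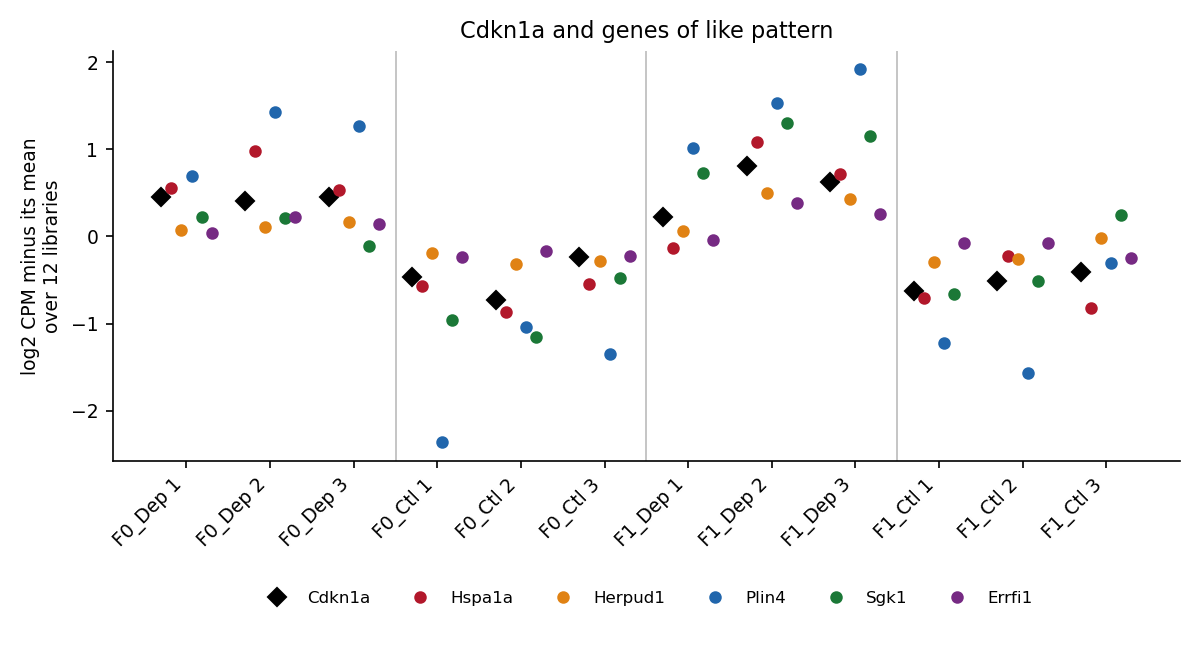
Log2 CPM minus its mean over the 12 libraries for Cdkn1a (black diamonds), for 2 of the 5 genes most like it, Hspa1a and Herpud1, and for 3 glucocorticoid-induced genes, Plin4, Sgk1 and Errfi1. Cdkn1a is above 0 in the 6 Dep libraries and below 0 in the 6 Ctl libraries, and Plin4 follows the same split with a wider range.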

How the data were processed

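RNA from the hippocampus of 12 mice was sequenced with a stranded mRNA kit, per the labels' protocols. The authors deposited expected counts, estimated per gene and not scaled, for 12 libraries, and FPKM values for 9, those of F0_Dep, F0_Ctl and F1_Dep. HISAT2, Cufflinks 2.2.1 and the build mm10 are named with no role, per the submitters' processing notes. The sources used here name no counting tool and no strand setting.

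Of 35812 identifiers, 35202 had a symbol, and those without one held 0.579% of counts. Expected counts were rounded and tested with edgeR 4.0.16 (R 4.3.3): TMM scaling, filterByExpr, 16163 genes, a quasi-likelihood fit of the 4 groups together, and Benjamini-Hochberg adjustment over all genes with a threshold of 0.05. Standard errors are the fold change over the root of its F statistic. For FPKM, limma 3.58.1 was run on log2(FPKM + 1) for genes with at least 1 FPKM in at least 3 libraries. The edgeR step was tested on simulated data. DESeq2 1.42.0, other scalings and filters, and omissions of libraries were alternatives. Likeness used a mean of at least 2 CPM.

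The 9 genes, the lists and the naming rule (all members, called list genes, fixed examples and the genes most like Cdkn1a) were chosen with earlier results of these data known; genes named as extremes of a list were picked after their values were seen. No libraries were duplicates, and 0 columns were left unused.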

Additional observations from a re-analysis of the deposited data

Results flagged for a closer look

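Plk3 is listed because its change differed between the generations by the test of the difference itself. The interaction, the F1 change minus the F0 change, was 1.49 on the log2 scale (SE 0.18, adjusted p = 0.0161, edgeR), with all 3 F1_Dep libraries above all F1_Ctl libraries and all 3 F0_Dep libraries below all F0_Ctl libraries. Of 18 alternatives, 14 kept the call, the adjusted p ran from 1.67e-09 to 0.0849, and the call was lost without F0_Dep 1, F0_Dep 3, F1_Dep 1 or F1_Ctl 2. Over all genes, edgeR called 0.0681% in this difference. F1_Ctl enters it, and Plk3 had -0.39 for F1_Ctl over F0_Ctl. A separate sequencing run and the F1_Ctl group cannot be told apart, and its part in the Plk3 value was not tested.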

How the results depend on the processing

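The count of the 7 members called was the same in 90 of 94 alternatives. In F0 it was 2 in FPKM with a pseudocount of 1 or 0.1 (Bax and Trp53inp1), 1 in FPKM with no filter (Bax) and 1 (Ccng1) when F0_Ctl 3, F1_Ctl 3 and F1_Dep 1 were left out together. For other p53 targets the F0 count of 0 was 2 without those 3 libraries, 2 by DESeq2, 4 in FPKM with either pseudocount and 2 in FPKM with no filter. The F1 count of 1 was 3 without those 3 libraries, 2 by DESeq2, 0 with only the groups compared, and 0 to 2 in omissions of 1 library. With the replicate block it was 0, and over all genes the block gave 12 calls in F0 in place of 80 and 0 in F1 in place of 27. Of 18 correlations of deviations between libraries with the same number, 2 were above 0.1, and not every library correlated best with its own number, so the numbers are not taken as pairs. The count of 1 in the difference between generations was 4 without the 3 libraries, 3 by DESeq2 and 0 to 2 in omissions. In F1_Dep against F0_Ctl it was 1 by DESeq2 and 1 without the 3 libraries, in place of 0. Calls over all genes rose too without the 3 libraries. In F0 there were 363 higher and 149 lower, in place of 56 and 24. F1 had 252 and 86, in place of 7 and 20, and the difference had 211 and 276, in place of 4 and 7. In F1_Dep against F0_Ctl there were 629, in place of 0. Members correlated with Cdkn1a within groups were 0 to 2 in omissions, 2 without F0_Ctl 3. Over all genes, calls in omissions of 1 library numbered 5 to 373 in F0, 0 to 678 in F1, 6 to 1527 with both Dep groups against both Ctl groups, 0 to 184 in the difference, 0 to 12 in F1_Dep against F0_Ctl and 0 to 400 between the controls, so the shares of all genes called in edgeR move as widely. The cause of these shifts was not tested.

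Signs turned for log2 values near 0. In F0, Mdm2 had -0.012 without scaling and -0.0036 to 0.063 in omissions, Bax -0.23 to 0.017, and Zmat3 0.14, 0.15 and 0.14 in FPKM with a pseudocount of 1, of 0.1 and with no filter, and -0.19 to 0.0041 in omissions. In F1, Cdkn1c had -0.47 to 1.73 in omissions, Ccng1 had -0.079 to 0.17 in omissions, and Trp53inp1 0.0049 without the 3 libraries and -0.21 to 0.030 in omissions. With both Dep groups set against both Ctl groups, Trp53inp1 had -0.041 to 0.10 and Sesn1 -0.057 to 0.14. In the difference between generations, Mdm2 had -0.026 to 0.17, and Trp53 had 0.021 without scaling and -0.10 to 0.014 in omissions.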
